A study of Bos taurus with 14 samples.

Results

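FAS, CASP8, BIRC3 and BCL2L14 are 4 genes of the machinery that decides between cell death and survival. They were taken as the probe annotated to BCL2L14 and every array probe whose name, accession or description stands for CASP8, FAS or BIRC3. That gave 4 of the 15208 non-control probes, 1 for each gene. A further 7 probes were set aside because FAS or CASP8 is only part of another gene's name there (FASLG, FASTK, FADD, FBF1, FAIM, CFLAR and FAF1). The cells came from cattle (Bos taurus) and were kept for 2 h with interferon tau (IFNT) or with phosphate-buffered saline (PBS), the vehicle. IFNT, a type I interferon made by the ruminant conceptus, is the signal by which the mother's body recognises pregnancy. There were 4 granulocyte samples with IFNT and 4 with PBS, and 3 samples of bovine endometrial stromal cells (BES) with IFNT and 3 with PBS.

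The labels give the IFNT concentration as 1 mg/mL and mark the BES samples as in vitro and the granulocyte samples as both in vivo and in vitro. They name no animal, breed or age, and they describe RNA extraction for granulocytes alone. Nothing in them shows that the replicates were independent animals or cultures, and p-values here measure only the spread between samples, which may be technical. Each sample was hybridised to 1 one-colour Agilent array. BES arrays shared 1 slide and granulocyte arrays another, and the effect of the slide cannot be told apart from that of the cell type.

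FAS is a death receptor at the cell surface. When its ligand binds, the adaptor FADD recruits the initiator protease CASP8, which can cut and activate executioner caspases or, through the BCL2 family, open the mitochondrial route. BIRC3 (also called cIAP2) is a ubiquitin ligase that works with TRAF proteins below the tumour necrosis factor receptors, favours survival and NF-kB signalling, and is itself a known NF-kB target. BCL2L14 (BCL-G) belongs to the BCL2 family, and its part in cell death is debated. Granulocytes are mostly neutrophils, short-lived blood cells that die by apoptosis unless survival signals delay it, while endometrial stromal cells are long-lived resident cells of the uterus.

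The 60-base probes are shown because each gene's values come from a single one of them, so its sequence sets which transcript was measured. They are printed as the array files give them, in lower case throughout, since no part was singled out.
FAS: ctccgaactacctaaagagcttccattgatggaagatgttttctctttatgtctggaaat
CASP8: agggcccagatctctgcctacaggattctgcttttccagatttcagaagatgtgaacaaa
BIRC3: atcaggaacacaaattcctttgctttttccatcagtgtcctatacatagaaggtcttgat
BCL2L14: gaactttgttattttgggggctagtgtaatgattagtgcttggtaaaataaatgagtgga

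The GC content of these probes was 38.3% for FAS, 45.0% for CASP8, 36.7% for BIRC3 and 35.0% for BCL2L14. Over all probes of the array the median was 43.3% and the 5th and 95th percentiles were 35.0% and 55.0%, so the BCL2L14 probe lies at the AT-rich edge. The longest run that any of them shared with another probe of the array was 15 bases, between BIRC3 and the probe of IPMK. That compares probes only, and no probe was assigned to BIRC2 through the gene table, so matches to other transcripts were not tested. The BIRC3 probe carries BIRC2 as its short name in the file, but its accession is that of BIRC3 in the bovine RefSeq gene table, which lists BIRC2 among the older names of BIRC3, and its description says BIRC3. The CASP8 probe is annotated through a predicted bovine transcript described as similar to CASP8. In the gene order of that table (ARS-UCD2.0), CASP8 lies close to CFLAR, the gene of its inhibitor, BIRC3 lies next to BIRC2, FAS lies between ACTA2 and CH25H, and BCL2L14 lies between LRP6 and ETV6. The array files name no genome build, and no position is given here.

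On the granulocyte arrays 66.4% to 70.9% of probes gave a signal well above background, and on the BES arrays 71.6% to 76.1% did. Of 13 granulocyte marker genes, 9 had a probe, and all 9 were well above background on every granulocyte array, while CXCR1, CATHL2, MPO and ITGAM were on no BES array. Of 12 stromal marker genes, 10 had a probe, and all 10 were well above background on every BES array. In granulocytes, 5 of the 10 were so on every IFNT array and 4 on every PBS array. COL1A2, COL3A1, LUM and PDGFRA were on no granulocyte array. By mean log2 level, THY1 was higher in granulocytes (−1.77 with IFNT, −1.88 with PBS) than in BES (−4.75 and −4.39). VIM was much alike under PBS (4.67 in granulocytes, 4.53 in BES). The other stromal markers were higher in BES. Of the 6 epithelial markers with a probe, all 6 were well above background on every granulocyte array with IFNT and 4 on every one with PBS, while 5 were on every BES array and EPCAM on none. Their summed log2 level was 2.04 to 2.57 in granulocytes and 7.69 to 7.88 in BES. The stromal markers summed to 8.06 to 8.15 in BES. Under PBS, mean log2 levels in BES were 7.19 for KRT8, 5.95 for KRT19 and 3.50 for CDH1. In granulocytes they were −5.16, 0.94 and 1.52. MUC1 was also higher in BES under PBS, while CLDN4 and EPCAM were lower. Whether the BES samples held epithelial cells was not tested. Granulocyte arrays also gave signal for monocyte, eosinophil, T and NK cell and B cell markers, whose sums are given with the granulocyte results.

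Levels are log2 processed signals minus the 75th percentile of the array, so 0 is that percentile and a step of 1 is a doubling. A value reads only across samples of the same probe, since probes differ in brightness. Tests covered probes with a signal that the scanner software called well above background on 4 or more granulocyte arrays or on 3 or more BES arrays. Changes were called at an adjusted p under 0.05 (limma, two-sided, Benjamini-Hochberg over all probes tested). With so few arrays per group, the array number limits the precision of every value. In these bulk samples, a change in the number of cells of a type and a change in RNA per cell cannot be told apart.

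In granulocytes kept for 2 h, FAS, CASP8 and BCL2L14 were higher with IFNT than with PBS, and BIRC3 was lower. There the treatment groups also filled different array rows, so treatment and row cannot be told apart. In BES, FAS, CASP8 and BIRC3 were higher with IFNT, and BCL2L14 stayed too close to background to be tested. The CASP8 groups overlapped in granulocytes. Its call there, and those of FAS and BIRC3 in BES, were lost with some single samples left out. All 4 genes were called in granulocytes, BCL2L14 after passing the filter through its IFNT arrays alone, where 44.6% of the 10379 probes tested were called (17.2% higher and 27.4% lower). All 3 genes tested in BES were called higher, where 3.66% of the 11309 probes tested were called (2.29% higher and 1.37% lower). Since nearly as many probes were called as not in granulocytes, the count of 4 says little there.

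**Figure D1:**
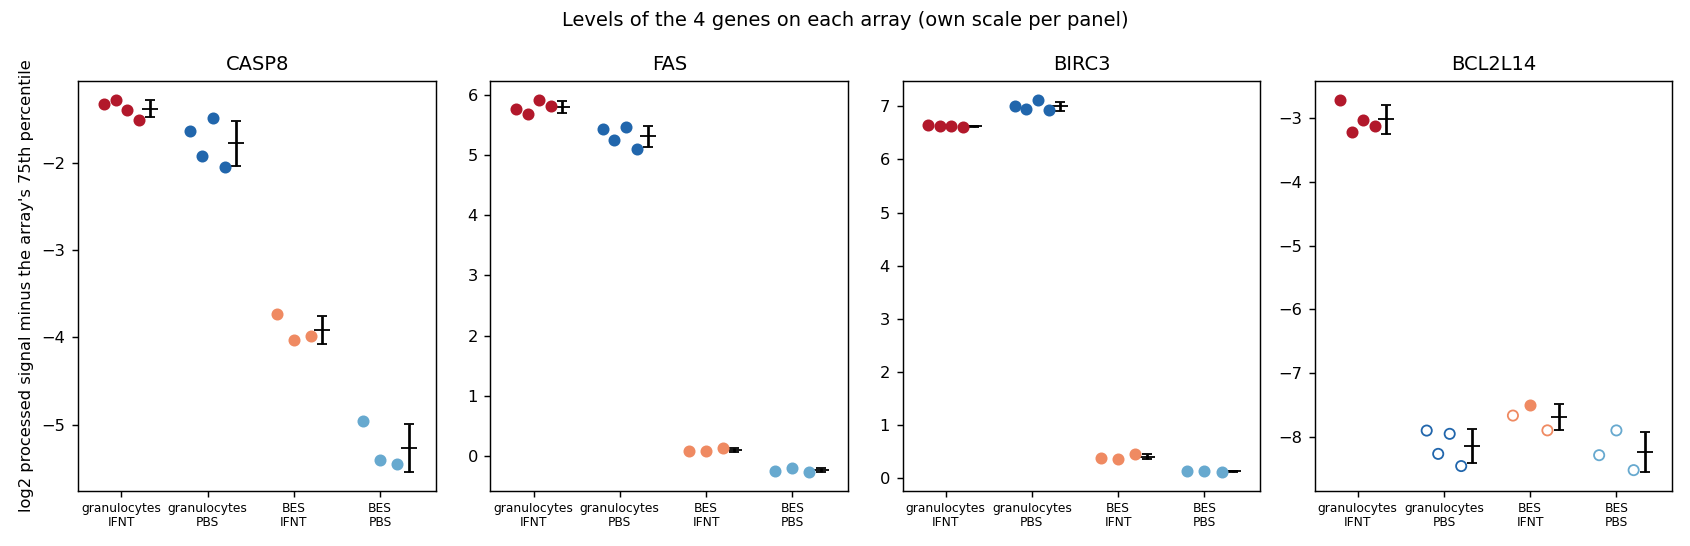
Level of each gene on each of the 14 arrays, as log2 processed signal minus the 75th percentile of the array, with 1 panel and 1 scale per gene. Points are arrays (open where the probe was not well above background), and bars give the group mean and SD. BCL2L14 stands at −2.71 to −3.22 with IFNT in granulocytes and below −7 in the other 3 groups, while FAS and BIRC3 separate the cell types far more than the treatments.

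FAS, the receptor, had log2 levels of 5.77, 5.69, 5.93 and 5.81 in granulocytes with IFNT, against 5.43, 5.26, 5.48 and 5.10 in granulocytes with PBS. Every IFNT sample was above every PBS sample, a separation that 43.6% of the probes tested in granulocytes showed in one direction or the other. The rise was 0.48 ± 0.09 on the log2 scale (SE, 4 samples against 4, 95% confidence interval 0.27 to 0.69), or 1.40-fold (limma adjusted p = 0.00265).
In BES the levels of FAS were 0.08, 0.07 and 0.13 with IFNT, against −0.25, −0.21 and −0.26 with PBS. The BES groups did not overlap either, as was so for 33.5% of the probes tested in BES. The rise in BES was 0.33 ± 0.04 (SE, 3 samples against 3, interval 0.23 to 0.44), or 1.26-fold (limma adjusted p = 0.0110). That call was lost without PBS sample 1 or without any single IFNT sample, with adjusted p-values of up to 0.0613 and log2 rises of 0.31 to 0.34. The response was 0.15 ± 0.12 larger in granulocytes than in BES, with an interval of −0.11 to 0.41 (limma adjusted p = 0.407), so a difference of either sign is within reach of these samples.

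CASP8, the initiator caspase that FAS engages, rose in both cell types and rose less in granulocytes. Its log2 levels were −1.33, −1.28, −1.39 and −1.52 in granulocytes with IFNT, against −1.64, −1.93, −1.49 and −2.05 with PBS. PBS sample 3 lay just above IFNT sample 4, so the groups overlapped. The rise in granulocytes was 0.40 ± 0.12 (SE, 4 against 4, interval 0.12 to 0.68), or 1.32-fold (limma adjusted p = 0.0282). Without PBS sample 2 or 4, or without IFNT sample 1, 2 or 3, the adjusted p was above 0.05 and reached 0.0782, with rises of 0.31 to 0.49 over all samples left out in turn.
In BES the levels of CASP8 were −3.73, −4.02 and −3.98 with IFNT, against −4.95, −5.40 and −5.44 with PBS. The groups stood well apart there, with the lowest IFNT sample far above the highest PBS sample. Of the probes tested in BES, 33.5% did not overlap. The rise in BES was 1.35 ± 0.15 (SE, 3 against 3, interval 0.99 to 1.71), or 2.55-fold (limma adjusted p = 0.00586), the 62nd highest log2 difference among the 11309 probes tested. It kept its call under the 10 alternatives and with each of the 6 samples left out, but was 0.85 under normexp background correction. Set against each other, the granulocyte response was lower than the BES response by a log2 difference of −0.96 ± 0.21 (interval −1.42 to −0.50, limma adjusted p = 0.00501), and by −0.51 under normexp (adjusted p = 0.0262). Of the 12046 probes in that comparison 26.5% were called, 14.8% with the lower and 11.7% with the higher response in granulocytes.

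BIRC3, the survival-linked ubiquitin ligase, moved in opposite directions. Its log2 levels were 6.64, 6.62, 6.62 and 6.62 in granulocytes with IFNT, against 7.00, 6.95, 7.12 and 6.93 with PBS. The SD was 0.00903 over the IFNT samples, against 0.09 over the PBS samples, and all 4 IFNT samples were below every PBS sample. Of the probes tested in granulocytes, 43.6% did not overlap, in one direction or the other. BIRC3 fell by 0.38 ± 0.05 on the log2 scale (SE, 4 against 4, interval −0.50 to −0.26), or 1.30-fold (limma adjusted p = 0.000429). The call stayed with each sample left out and in every other setting that was tried, and the scanner software marked none of these spots as saturated.
In BES the levels of BIRC3 were 0.38, 0.37 and 0.46 with IFNT, against 0.14, 0.13 and 0.12 with PBS. Here every IFNT sample was above every PBS sample, and 33.5% of the probes tested in BES did not overlap. The rise in BES was 0.28 ± 0.04 (SE, 3 against 3, interval 0.17 to 0.38), or 1.21-fold (limma adjusted p = 0.0286). It was the least secure of the BES calls: leaving out any 1 of the 6 samples raised the adjusted p above 0.05, to at most 0.105, while the log2 rise stayed between 0.25 and 0.29. The difference between the responses, granulocytes minus BES, was −0.65 ± 0.07 (interval −0.80 to −0.50, limma adjusted p = 1.89e-05), and it kept its call under each alternative that was run.

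BCL2L14, the BCL2 family member, was clearly measured in granulocytes with IFNT and not well above background in those with PBS. Its log2 levels were −2.71, −3.22, −3.03 and −3.13 with IFNT, all well above background, against −7.90, −8.26, −7.95 and −8.46 with PBS, none of them well above background. The scanner software had put a substitute value in place of each of those 4 PBS signals, so the PBS level is only a bound. With IFNT, BCL2L14 was 7.06-fold above the lowest signal called well above background on each PBS array, by means on the log2 scale. That lowest signal is taken over all probes, so 7.06 is no strict lower limit for this one. The probe was tested through its 4 IFNT arrays alone, so it had to differ, and the limma adjusted p of 3.31e-08 rests on the spread of the substitute values. The fitted log2 difference of 5.12 depends on them too, with 1.87 under normexp and 5.76 under quantile normalization, and is no measure of the rise.
In BES the levels of BCL2L14 were −7.66, −7.49 and −7.90 with IFNT, against −8.29, −7.90 and −8.52 with PBS. Only IFNT sample 2 was called well above background, so BCL2L14 was not tested in BES and no fold is given. Across cell types the fitted difference of the responses was 4.57 (limma adjusted p = 8.14e-08), but 3 of its 4 groups lie at or near background, so neither its size nor its p measures a difference.

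**Figure D2:**
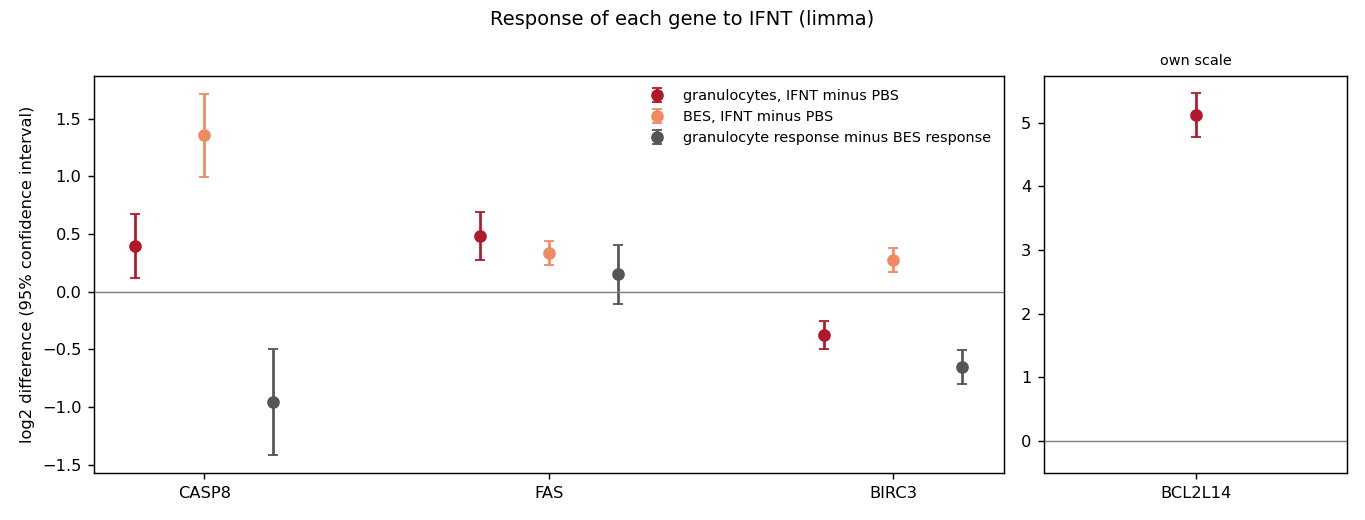
Log2 difference between IFNT and PBS in granulocytes and in BES, and the granulocyte response minus the BES response, with 95% confidence intervals from limma. BIRC3 lies below 0 in granulocytes (−0.38) and above 0 in BES (0.28), and BCL2L14, on its own scale, is shown for granulocytes alone, where its PBS level is a bound.

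On the granulocyte slide the IFNT samples filled 1 array row and the PBS samples the other, so row and treatment cannot be told apart there. On the BES slide, PBS sample 3 shared its row with the IFNT samples. With array row in the BES fit, the CASP8 rise was 1.53 and kept its call, while FAS (0.35, limma adjusted p = 0.0985) and BIRC3 (0.29, limma adjusted p = 0.197) lost theirs. That fit compares the IFNT samples with PBS sample 3 only.
Marker sums for other cells also moved with treatment. In granulocytes, the summed log2 level of 6 measured monocyte and macrophage markers was 4.73 to 4.78 with IFNT, against 4.82 to 4.95 with PBS. The members of that sum were split. By group mean, CD68, the member of highest level (4.31 with IFNT, 4.67 with PBS), C1QA and CD36 were lower with IFNT. CD14 (2.44 with IFNT, 1.41 with PBS), C1QB and C1QC were higher. The 2 measured eosinophil markers summed to 3.41 to 3.60 with IFNT, against 3.78 to 3.86 with PBS, and the 4 measured B cell markers to 3.51 to 3.63 with IFNT, against 3.42 to 3.50 with PBS. None of these 3 pairs of ranges overlapped, whereas the 9 granulocyte markers (9.69 to 9.82 with IFNT, against 9.65 to 9.98 with PBS) and the 11 T and NK cell markers (1.82 to 1.97, against 1.88 to 1.97) did, with CD4 on no array. The B cell members were split in granulocytes too. By group mean, BLK, the member of highest level, MS4A1 and JCHAIN were higher with IFNT, and CD79A was slightly lower. Both eosinophil markers, ALOX15 and CCR3, were lower. In BES the 10 stromal markers summed to 8.12 to 8.15 with IFNT, against 8.06 to 8.07 with PBS. The 4 B cell markers summed to −1.13 to −1.05 with IFNT, against −0.97 to −0.84 with PBS in BES, and the 5 platelet and erythroid markers to 0.115 to 0.179 with IFNT, against 0.189 to 0.319 with PBS. None of these 3 pairs of ranges in BES overlapped. Their members were split as well. By group mean in BES, COL1A1, LUM and THY1 were lower with IFNT, and the other stromal members were higher. CD79A and ALAS2, the B cell and the platelet and erythroid members of highest level in BES, were lower with IFNT. MS4A1, BLK and EPB42, at far lower levels, were higher. Among single probes tested, 43.6% did not overlap between IFNT and PBS in granulocytes and 33.5% in BES. The part of these markers in the responses was not tested.

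For BIRC3, FAS and CASP8 the cell types differed more than the treatments. Under PBS, BIRC3 stood 117-fold higher in granulocytes than in BES, with means of 7.00 ± 0.09 in granulocytes (SD, n = 4) and 0.13 ± 0.01 in BES (SD, n = 3), a log2 difference of 6.88 ± 0.05 (SE, limma adjusted p = 4.60e-18). FAS stood 47.0-fold higher, with 5.32 ± 0.17 in granulocytes and −0.24 ± 0.03 in BES (log2 difference 5.56 ± 0.08, limma adjusted p = 2.35e-15). CASP8 stood 11.2-fold higher, with −1.78 ± 0.26 in granulocytes and −5.27 ± 0.27 in BES (log2 difference 3.49 ± 0.15, limma adjusted p = 7.51e-11).
These differences exceed the spread between samples by a wide margin, but 91.7% of the probes tested were called in that comparison (46.7% higher and 45% lower in granulocytes), and 90.4% did not overlap. BCL2L14 was not well above background in granulocytes or BES under PBS, and no fold is given. The scaling matters here: the median of all 15208 probes was 0.70 higher in granulocytes than in BES when arrays were scaled on the 75th percentile, and by construction 0 under quantile normalization. Relative to that shift the 3 differences remain large, and over the alternatives they ranged from 6.53 to 6.88 for BIRC3, from 5.09 to 5.56 for FAS and from 2.77 to 3.49 for CASP8.
Over the 4 groups the order of levels was the same for FAS and CASP8: granulocytes with IFNT, granulocytes with PBS, BES with IFNT, BES with PBS. CASP8 is the gene whose neighbours in that order overlapped, between granulocytes with IFNT and with PBS. For BIRC3 the granulocyte groups changed places, with PBS above IFNT. For BCL2L14 only granulocytes with IFNT had an ordered place, since the others were at or near background.

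The other genes of the pathway were read from 12 lists of 98 genes, running from death ligands to NF-kB signalling, of which 54 had a named probe. Each gene was represented by its tested probe of highest mean level. In granulocytes 49 of them were tested, the 4 genes included: 11 rose, 14 fell and 24 did not pass, which is 51.0% called against 44.6% of all probes, with a median log2 difference of −0.08 against −0.05 for all probes. In BES 48 were tested: 5 rose, 0 fell and 43 did not pass, which is 10.4% called against 3.66% of all probes, with a median of −0.03 against −0.02 for all probes. Beside that 0, 16 of the 48 genes had an unadjusted limma p under 0.05 in either direction, and up to 3 were called lower under other settings (3 with limma's intensity trend and robust prior, 1 under normexp and 1 with all arrays in 1 fit). FAS, CASP8 and BIRC3 were 3 of the 5 that rose in BES, and all 4 genes were among those called in granulocytes. They were chosen with earlier results of these data known. The shares called thus do not measure an excess of the lists over all probes. The other 2 that rose in BES were DAXX, a FAS-binding protein that is mostly nuclear, and XAF1, an interferon-induced antagonist of XIAP.

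**Figure D3:**
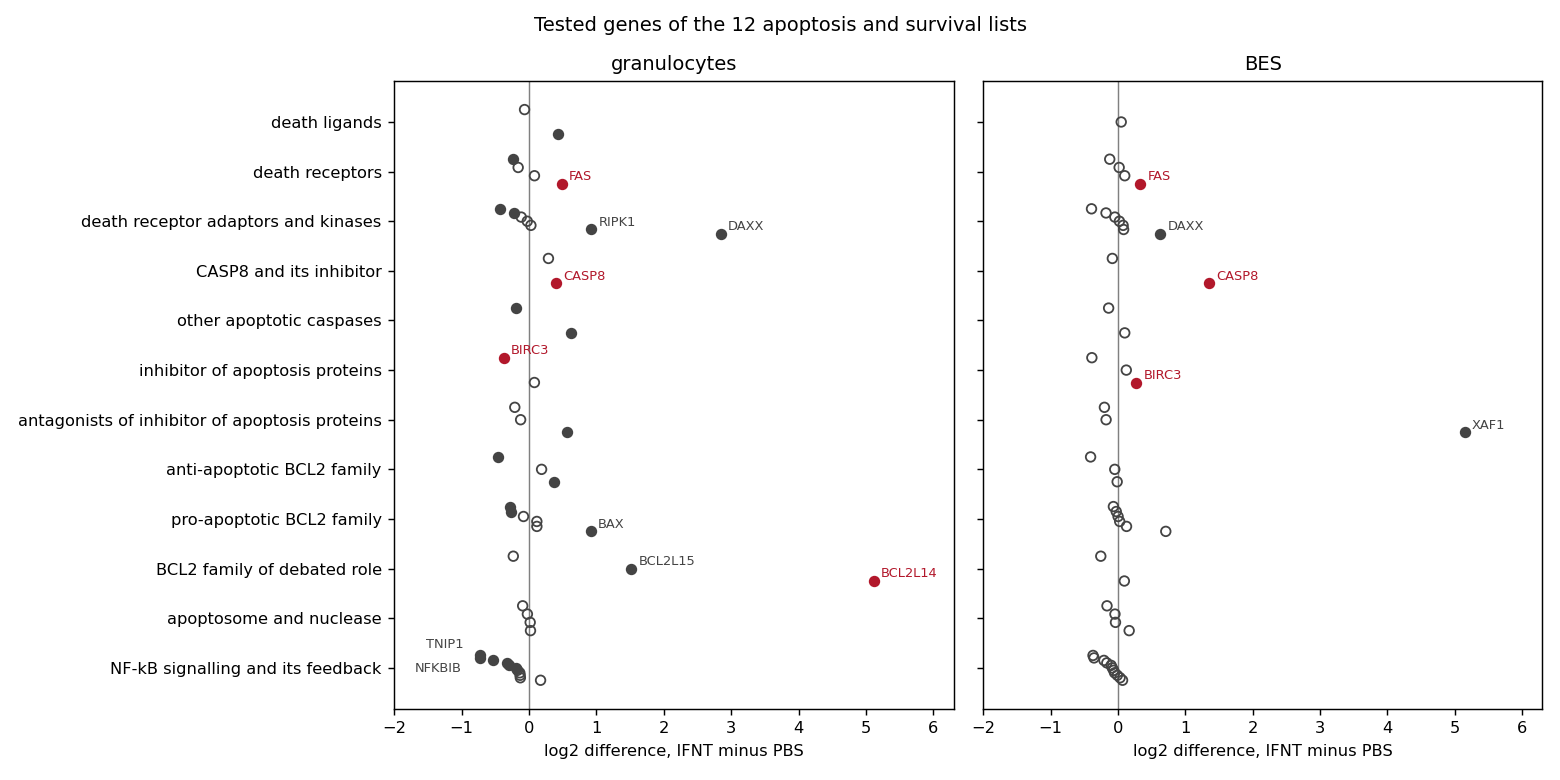
Log2 difference between IFNT and PBS for every tested gene of the 12 lists, in granulocytes and in BES. Filled points passed an adjusted p of 0.05 in limma and red points are FAS, CASP8, BIRC3 and BCL2L14. In granulocytes 11 genes rose and 14 fell, and in BES 5 rose and 0 fell.

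Among ligands and receptors, the FAS ligand FASLG was well above background on no array of any group and was not tested. In granulocytes 1 of the 2 tested ligands rose, TNF, the inflammatory cytokine (0.43 ± 0.12, limma adjusted p = 0.0215), a call that was lost without PBS sample 1 or 3 or without IFNT sample 2 (rises of 0.35, 0.40 and 0.35). TNF was on no BES array above background. Of the 4 tested receptors, FAS rose and TNFRSF21 (death receptor 6) fell by 0.23 ± 0.06 in granulocytes (limma adjusted p = 0.0154), while in BES FAS alone passed. Over all probes tested, 44.6% were called in granulocytes and 3.66% in BES, so the granulocyte counts say little about ligands or receptors.

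Of the 7 tested adaptors and kinases, 2 rose and 2 fell in granulocytes, where 44.6% of all probes were called, and 1 rose in BES, where 3.66% were. DAXX rose by 2.84 ± 0.07 in granulocytes (limma adjusted p = 1.48e-08) and by 0.63 ± 0.06 in BES (limma adjusted p = 0.00291). Its response was larger in granulocytes by 2.21 ± 0.10 (limma adjusted p = 1.73e-08). RIPK1, a kinase that steers receptor signals towards survival or death, rose by 0.92 ± 0.17 in granulocytes (limma adjusted p = 0.00222), against −0.39 ± 0.13 in BES, which did not pass (limma adjusted p = 0.138).
The RIPK1 responses differed by 1.31 ± 0.25 (limma adjusted p = 0.00189). TRAF6, a ubiquitin ligase of Toll-like and interleukin-1 receptor signalling, fell by 0.43 ± 0.04 in granulocytes (limma adjusted p = 6.18e-05), and TRADD, the adaptor of tumour necrosis factor receptor 1, fell by 0.23 ± 0.08 (limma adjusted p = 0.0434). FADD, the adaptor between FAS and CASP8, did not pass in granulocytes (−0.12, limma adjusted p = 0.0944) or in BES (−0.05, limma adjusted p = 0.776). FADD, CFLAR and FASLG, for their direct link to FAS and CASP8, and TRADD were named after their values were seen.

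CFLAR, the caspase-like inhibitor of CASP8, did not pass in granulocytes (0.29, interval 0.01 to 0.57, limma adjusted p = 0.0902) or in BES (−0.08, limma adjusted p = 0.761). CASP6, an executioner caspase, fell by 0.19 ± 0.05 in granulocytes (limma adjusted p = 0.00918) and did not pass in BES. Of the inhibitor of apoptosis proteins tested in granulocytes, BIRC3 fell and XIAP did not pass. Of their antagonists, XAF1 rose by 0.56 ± 0.04 in granulocytes (limma adjusted p = 1.50e-05). In BES it rose by 5.14 ± 0.15 (limma adjusted p = 9.00e-06), where it was well above background on 2 of 3 PBS arrays. Under normexp the BES rise of XAF1 was 3.07, so its size depends on the background correction.

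In the BCL2 family, granulocytes showed calls in both directions and BES showed 0 calls (limma, with 3 genes at an unadjusted p under 0.05). Calls were made for 44.6% of all probes in granulocytes and 3.66% in BES, so the 0 in BES says little about this family. Among anti-apoptotic members BCL2 rose by 0.36 ± 0.06 in granulocytes (limma adjusted p = 0.00195), though its other tested probe gave 0.05 (limma adjusted p = 0.685). BCL2A1, a survival factor of myeloid cells and a known NF-kB target, fell by 0.46 ± 0.10 (limma adjusted p = 0.00426). Calls among these protective genes thus went both ways.
Among pro-apoptotic members BNIP3L, which also marks mitochondria for removal, fell by 0.29 ± 0.04 (limma adjusted p = 0.000612). BMF fell by 0.27 ± 0.05 (limma adjusted p = 0.00140), with −0.22 from its other probe, which did not pass (limma adjusted p = 0.139). BAX, a pore former of the mitochondrial membrane, rose by 0.92 ± 0.29 (limma adjusted p = 0.0302), a call lost without PBS sample 2 or 4 or IFNT sample 2 or 3 (rises of 0.71 to 0.86). Of the 6 pro-apoptotic genes tested, 1 rose and 2 fell, a share close to the 44.6% of all probes.
BCL2L15, which like BCL2L13 is a family member of debated role, rose by 1.52 ± 0.08 in granulocytes (limma adjusted p = 9.85e-07), against 0.10 ± 0.21 in BES (limma adjusted p = 0.808). Its response was larger in granulocytes by 1.42 ± 0.22 (limma adjusted p = 0.000478). The list of debated members had a median of 1.52 over 3 tested genes in granulocytes, which is the value of BCL2L15 itself. BCL2L14 is among the 3 at its bound and had passed the filter through its IFNT arrays alone.

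In the NF-kB list, 6 of 11 tested genes fell and 0 rose in granulocytes (7 had an unadjusted limma p under 0.05 in either direction), 54.5% called against 44.6% of all probes, with a median of −0.20 against −0.05 for all probes. Among the 6 were NFKBIB, an inhibitor that holds NF-kB in the cytoplasm (−0.73 ± 0.05, limma adjusted p = 5.36e-06), TNIP1, a partner of the ubiquitin editor A20 (−0.73 ± 0.06, limma adjusted p = 1.50e-05), and CYLD, a deubiquitinase (−0.30 ± 0.05, limma adjusted p = 0.000869). All 3 are known to restrain NF-kB signalling, although the list also holds the activating kinases. The remaining 3 were NFKB1, CHUK and MAP3K7, named after their values were seen. In BES none of the 11 was called (0 in limma, with 3 at an unadjusted p under 0.05) and the median was −0.08. Between the cell types, 5 of the 11 had a lower response in granulocytes and 1 a higher one, where 14.8% of all probes were called lower and 11.7% higher. The apoptosome and nuclease list gave 0 calls among 4 tested genes in each cell type, and 0 at an unadjusted limma p under 0.05.

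Named genes whose pattern over the 14 arrays was most like that of each gene were found by Pearson's r, after each cell type's mean was subtracted, over 5949 named probes. The arrays share their treatment groups, so a high r mostly reflects a like response, and it is given without a test. BCL2L14 was most like PDE12, CXCL10 (a chemokine induced by interferons) and CATHL6 (an antimicrobial cathelicidin), with r of 0.995, 0.995 and 0.994. BCL2L14 was well above background only in granulocytes with IFNT and in BES IFNT sample 2. All its r values, those with FAS and BIRC3 included, thus rest mainly on 1 measured group against background. CXCL10 differed between IFNT and PBS by 6.31 in granulocytes and by 0.64 in BES on the log2 scale.
CASP8 was most like B2M (the light chain of MHC class I), ISG15 (a ubiquitin-like protein) and MX1 (an antiviral GTPase), all known interferon-stimulated genes, with r of 0.939, 0.938 and 0.938. MX1 differed by 2.41 in granulocytes and by 6.87 in BES, and ISG15 was saturated on all 4 granulocyte arrays with IFNT. FAS was most like ERMP1, MPHOSPH10 and LEPROT, with r of 0.957, 0.953 and 0.951. BIRC3 was most like UBQLN1, NOCT and DUSP6, with r of 0.955, 0.953 and 0.937, and each of these 3 was lower in granulocytes with IFNT and higher in BES with IFNT. DUSP6, a phosphatase that switches off the kinase ERK, differed by −0.92 in granulocytes and by 0.45 in BES. The name of NOCT comes from a description of its probe as similar to that gene. Among the 4 genes themselves, r was 0.84 between FAS and BCL2L14 and 0.72 between FAS and CASP8, and −0.75 between BCL2L14 and BIRC3.

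**Figure D4:**
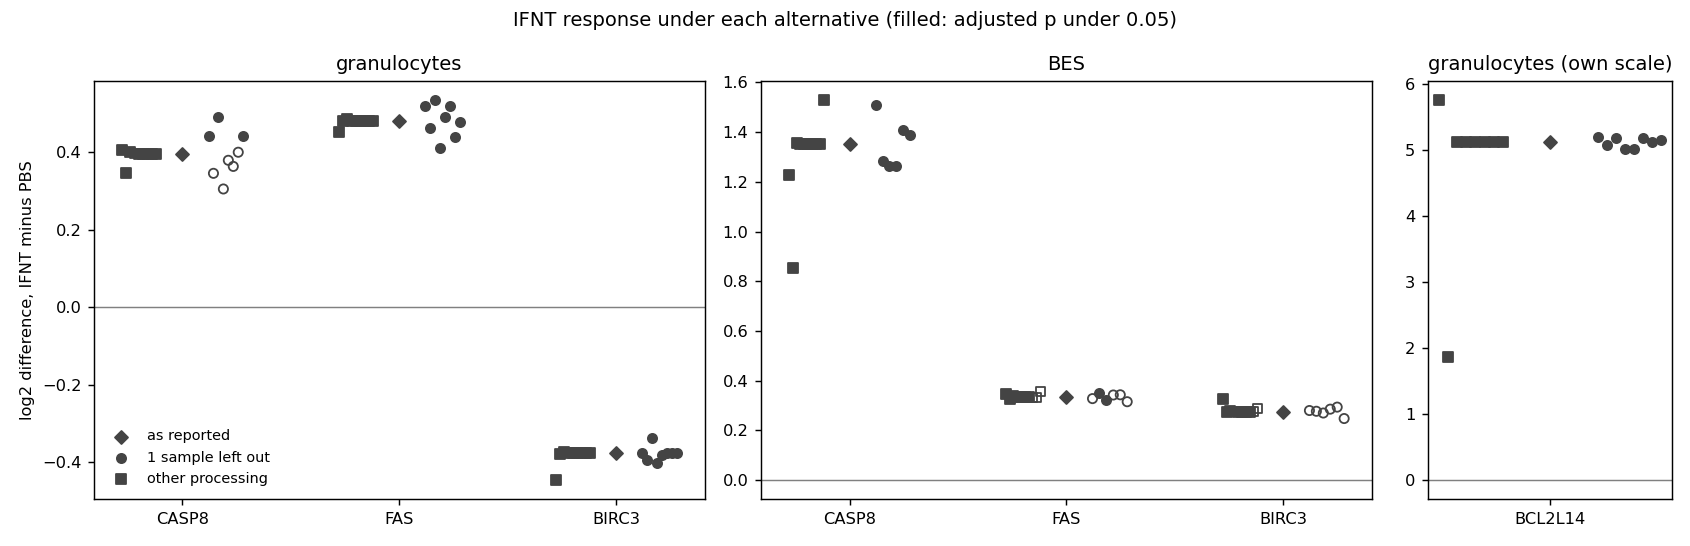
Log2 difference between IFNT and PBS as reported (diamonds), under other processing (squares) and with 1 sample left out (circles), where filled symbols have an adjusted p under 0.05 in limma. Direction never changed. BES rises of FAS and BIRC3 and the granulocyte rise of CASP8 lost their call in several settings, and BCL2L14 in granulocytes, on its own scale, varied between 1.87 and 5.76.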

How the data were processed

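Fluorescence was measured on 14 one-colour arrays. The deposited scanner files hold an intensity per spot, made with Agilent Feature Extraction 9.5 per the submitters' processing notes. Its processed signal is already corrected for background per the file headers. The authors' value table holds log2 values, each column being the log2 processed signal minus 1 constant. Processed signals were taken to log2 and each array's 75th percentile over non-control probes was subtracted. Spots marked as non-uniform or population outliers (0 to 5 per array) were left out. The 75th percentile was an intensity of 1009 to 1491 on granulocyte arrays and 2564 to 3173 on BES arrays.

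The test was limma 3.58.1 (run in R 4.3.3), fitted separately in each cell type and over all arrays between cell types. The fits were tested on simulated data. A symbol was found for 7081 probes through the RefSeq gene table (ARS-UCD2.0), 1022 of them from a description as similar to a gene. Every probe of the 4 genes was named, and of each pathway list up to 3 further genes per cell type with the smallest p among those called. Of the genes so selected, 1 is not reported here, though counts include it. The genes and lists were chosen with earlier results of these data known. Alternatives covered normalization, background correction, filters, priors, array row, a replicate block and each sample left out.

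Same-numbered samples did not deviate together throughout (correlations of 0.05, 0.06 and −0.01 in BES and 0.14, 0.18, 0.20 and −0.12 in granulocytes), so they were not treated as pairs.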

Additional observations from a re-analysis of the deposited data

Results flagged for a closer look

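The IFNT responses of BIRC3 and CASP8 differed between the cell types by a test of the difference itself (limma, granulocytes minus BES). For BIRC3 the log2 difference was −0.65 (adjusted p = 1.89e-05), with a fall in granulocytes in 4 of 4 IFNT samples against every PBS sample and a rise in BES in 3 of 3. For CASP8 it was −0.96 (adjusted p = 0.00501), with rises in both. Of all probes in that comparison, 26.5% were called. Between IFNT and PBS, 43.6% of the probes tested in granulocytes and 33.5% of those tested in BES did not overlap. For BCL2L14 the fitted difference was 4.57 (adjusted p = 8.14e-08), but it uses background values in granulocytes with PBS and in 5 of the 6 BES samples, so neither its size nor its p measures a difference between the cell types. No sample stood apart in any of the 8 granulocyte groups of values that were checked.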

How the results depend on the processing

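No result of an IFNT response changed direction. In BES 414 probes passed (259 higher, 155 lower), against 189 without a filter on dim probes (163, 26), 1011 with an intensity trend and robust prior (432, 579), 149 with array row (129, 20), 616 under normexp (294, 322), 585 with probes measured on every array (295, 290), and 183 to 534 with 1 sample left out. With the replicate block 318 passed (205, 113). BIRC3 in BES lost its call without the filter (0.28, limma adjusted p = 0.0867), under the replicate block (0.28, 0.0789) and with array row (0.29, 0.197), and gave 0.25 to 0.29 with 1 sample left out. FAS in BES lost its call with all 14 arrays in 1 fit (0.33, 0.0605), under the replicate block (0.33, 0.0548) and with array row (0.35, 0.0985), and gave 0.31 to 0.35 with 1 sample left out. CASP8 in granulocytes lost its call without the filter (0.40, 0.0601) and gave 0.31 to 0.49 with 1 sample left out. Under PBS, BCL2L14 at background was −1.04 (quantile, 2.05e-05), 0.89 (normexp, 1.34e-05) and, with 1 sample left out, −0.0515 (without BES PBS sample 3) to 0.26. Granulocytes against BES gave 13604 probes without the filter (8191 higher, 5413 lower) and 11275 under normexp (6745, 4530), against 11052 (5629, 5423). In granulocytes 4104 to 4909 probes passed over the alternatives, against 4633. BMF lost its call under normexp, TNF with all 14 arrays in 1 fit, and BAX without the filter and under the block. Of the BES list genes 3 rose under the block or with array row. Among the 4 genes and the list genes named by the rule, the block changed no other call; its effect was not recorded for TRADD, NFKB1, CHUK and MAP3K7. The causes were not tested. Array row could not be fitted in granulocytes.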
